A study of Mus musculus with 6 samples.

Results

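The genes described here are the 5 subunits of the transcription factor NF-kB (Nfkb1, Nfkb2, Rel, Rela and Relb) and 5 genes that restrain or tune it (Nfkbia, Nfkbib, Nfkbie, Nfkbiz and Tnfaip3), chosen by name as members of the pathway. All 10 were found among the 24346 genes of the deposited tables. They were measured in 6 RNA-seq libraries of stromal cells sorted from the large intestine of 12-week-old mice that had received 1% dextran sulfate sodium (DSS), a polymer toxic to colonic epithelium that sets off colitis. The control group was 3 Il10ra flox/flox mice (libraries 8, 9 and 43, called floxed here). The other group was 3 mice with the same floxed alleles and Pdgfra-cre (libraries 13, 23 and 25), in which the recombinase is driven by a gene of fibroblasts. Il10ra encodes the chain of the receptor that binds interleukin-10. All 6 mice carried floxed Il10ra and all had DSS, so neither unmodified nor uninjured tissue enters the comparison, and a group with the cre alone was not analysed here. Live cells with Podoplanin on their surface, and with none of the leukocyte, endothelial and epithelial markers CD45, CD31 and EpCAM, were sorted. The sort did not select on PDGFRA, so cells that never expressed the cre may be among them.

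NF-kB proteins act as dimers that inhibitors of the IkB family hold in the cytoplasm until a receptor signal has the inhibitor degraded. In the canonical arm, receptors for tumor necrosis factor, interleukin-1 or microbial products release dimers of RELA or c-REL with the product of Nfkb1. In the non-canonical arm, receptors such as that for lymphotoxin stabilize the kinase encoded by Map3k14, and the Nfkb2 precursor is cut to a form that pairs with RELB. Several inhibitor genes are themselves NF-kB targets, which makes them feedback brakes. In intestinal fibroblasts the pathway is known for the chemokines and cytokines that call in neutrophils and monocytes. Much of this control acts on proteins, which transcript levels do not show.

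Levels are given as FPKM, the number of fragments scaled to transcript length and to library size, and 11188 to 11358 genes per library reached 1 FPKM. Fragment totals are unknown here; judged from the lowest values, relative depth ranged from 0.886 to 1.04 with floxed library 8 as the unit. The targeted gene Il10ra was at 0.418 FPKM in floxed library 43 and listed at 0 in the other 5, so these tables do not check the deletion. Fibroblast markers were abundant, with Dcn at 8626 to 11260 FPKM and all 12 markers at an FPKM of at least 1, and Pdpn at 78.3 to 123.5. Pdgfra, the gene that drives the cre, was at 178.2 to 199.9 FPKM in floxed and 120.5 to 173.6 in Pdgfra-cre libraries (log2 fold change -0.34 ± 0.14, SE, limma adjusted p = 0.411). The 12 markers summed to 18080 to 21240 FPKM in floxed and 21410 to 21740 in Pdgfra-cre libraries. Of them, 3 were higher and 1 lower without overlap, against 8.07% and 8.29% of all tested genes. Ptprc (CD45) lay between 0 and 1.04 FPKM, Pecam1 (CD31) between 0.0741 and 0.856, and Epcam between 0 and 1.11. Pdgfra-cre library 23 stood apart, with a mean Pearson correlation of 0.950 to the rest, where the others had 0.960 to 0.971. Its 11 listed neutrophil markers summed to 191.8 FPKM, against 2.19 to 20.2 in the other 5 libraries. Other marker sums were split by genotype. Smooth muscle and pericyte markers summed to 313.9 to 367.4 FPKM in floxed and 97.5 to 219.8 in Pdgfra-cre libraries, and mesothelial markers to 22.6 to 42.1 and 43.04 to 150.0, with library 23 at the far end of both. Of the tested genes in these lists, 7 of 11 smooth muscle genes were lower and 4 of 8 mesothelial genes higher in all Pdgfra-cre libraries than in any floxed one (8.29% and 8.07% of all tested genes), 0 of them called by limma (7 and 5 at an unadjusted p under 0.05), and their part in the NF-kB differences was not tested. The smooth muscle gene Actg2 was at 104.7 to 150.3 FPKM in floxed and 26.9 to 76.1 in Pdgfra-cre libraries (log2 fold change -1.29 ± 0.33, SE; limma adjusted p = 0.209). In floxed libraries, Tek (endothelium) reached 34.8 FPKM, Rspo1 (mesothelium) 21.4, Lyz2 (macrophages) 20.3, S100a8 (neutrophils) 6.84 and Krt19 (listed for epithelium and mesothelium) 4.95. In Pdgfra-cre libraries they reached 41.5, 43.6, 28.8, 94.7 and 15.4 FPKM, in the same order. Of the other listed endothelial genes, Esam was at 4.51 to 12.9 FPKM, Kdr reached 0.518 and Cdh5 was at 0 in all libraries.

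The most abundant of the 10 transcripts were 3 of the 5 genes that restrain or tune NF-kB, grouped here as inhibitors, ahead of every subunit. In floxed libraries the order of mean FPKM was Nfkbia (876), Nfkbiz (182), Tnfaip3 (78.9), Rela (55.5), Nfkbib (31.7), Relb (23.01), Nfkb2 (16.6), Nfkb1 (8.71), Nfkbie (7.15) and Rel (2.98), and in Pdgfra-cre libraries the order was the same. Within the floxed group the ranges of Nfkbib and Relb, of Relb and Nfkb2, and of Nfkb1 and Nfkbie overlapped, so those neighbours were not separated beyond their spread. Within Pdgfra-cre the overlapping neighbours were Relb and Nfkb2, Nfkb1 and Nfkbie, and Nfkbie and Rel. FPKM is scaled to transcript length, which allows levels of different genes to be set side by side. Of all tested genes, 99.5% had a lower mean FPKM than Nfkbia, 96.1% than Nfkbiz and 86.7% than Rela, but 27.4% than Rel.

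**Figure D1:**
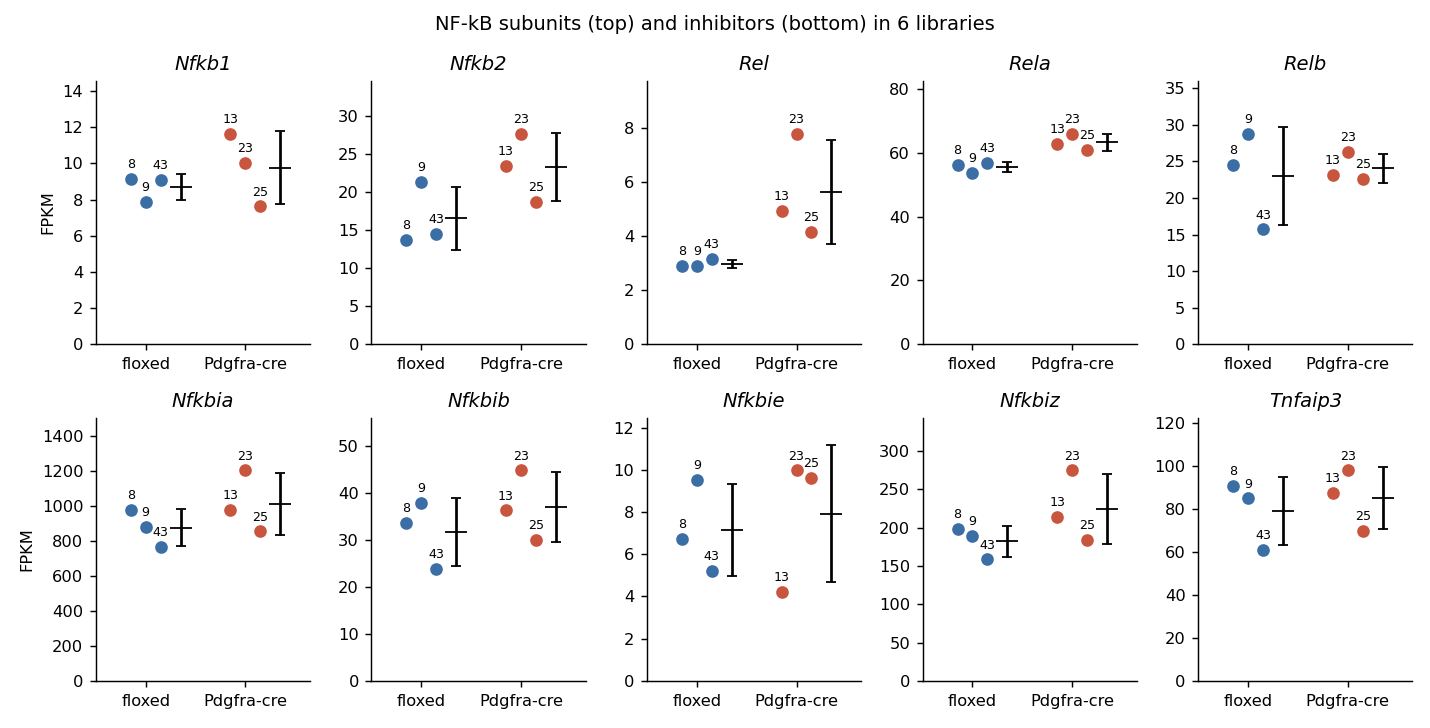
FPKM (vertical axes, each starting at 0) of the 5 subunits and 5 inhibitors in 3 floxed and 3 Pdgfra-cre libraries. Points are libraries with their numbers, horizontal bars are group means and error bars are SD (n = 3); the groups are separate for Rel and Rela and overlap in the other 8 panels.

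Between genotypes, all 10 members had a mean somewhat higher in the Pdgfra-cre libraries, and for none did the difference pass the test across all genes. Values were compared with limma on log2(FPKM + 1), with Benjamini-Hochberg adjustment over the 11429 genes that reached 1 FPKM in 3 or more libraries, as all 10 members did. At an adjusted p of 0.05, 0 of 10 members were called, as were 0% of all tested genes. At an unadjusted p under 0.05, 2 members (Rel and Nfkb2) were higher, against 5.47% of tested genes, and 0 were lower, against 5.49%. In FPKM, the groups did not overlap in 2 members (Rel and Rela), both higher, against 8.07% of tested genes, and 0 members were lower without overlap, against 8.29%. The members' log2 fold changes ran from 0.09 to 0.70 with a median of 0.19, beside 0.0012 for all tested genes, of which 50.3% lay above 0. The median was 0.094 without Pdgfra-cre library 23 and 0.30 without Pdgfra-cre library 25. After rescaling so that every library had the same FPKM sum (TPM), 9 of 10 members and 36.5% of tested genes lay above 0.

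**Figure D2:**
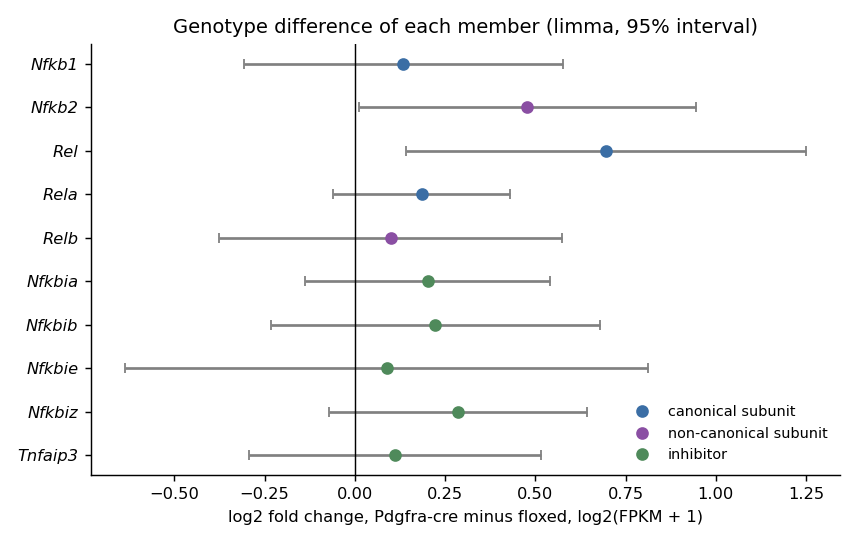
Log2 fold change (horizontal axis, Pdgfra-cre minus floxed, log2(FPKM + 1)) of each member with its 95% interval from limma (n = 3 libraries per group). All 10 points lie above 0, and the unadjusted intervals of Nfkb2 and Rel do not reach 0, although neither gene passed adjustment over all genes.

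Rela, which encodes the main transactivating subunit of the canonical arm (chromosome 19, 5637483 to 5648130, plus strand, mm10), was the steadiest member. It stood at 56.2, 53.7 and 56.7 FPKM in floxed libraries 8, 9 and 43 and at 62.8, 66.0 and 61.0 in Pdgfra-cre libraries 13, 23 and 25. Every Pdgfra-cre library was thus above every floxed one in FPKM, by a small margin. The FPKM sums differed too, from 493314 in floxed library 43 to 586043 in Pdgfra-cre library 23. Relative to these sums, Rela was lower in that Pdgfra-cre library than in that floxed one, so the groups overlapped. The means were 55.5 ± 1.64 and 63.3 ± 2.55 FPKM (SD, n = 3 each), and the log2 fold change was 0.18 ± 0.11 (SE; limma adjusted p = 0.603). It was 0.09 after rescaling to TPM. Over the 6 libraries the highest Rela value was 1.23 times the lowest, the narrowest span of the 10 members.

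Rel encodes c-REL, a canonical subunit best known from lymphocytes and myeloid cells (chromosome 11, 23736847 to 23770970, minus strand). It was the scarcest member and the one with the largest genotype difference. Floxed libraries 8, 9 and 43 had 2.90, 2.88 and 3.15 FPKM, and Pdgfra-cre libraries 13, 23 and 25 had 4.91, 7.78 and 4.15. The floxed values lay close together and the Pdgfra-cre values all lay above them, with library 23 far above the rest. The means were 2.98 ± 0.150 and 5.61 ± 1.91 FPKM (SD, n = 3 each), a ratio of 1.89. The log2 fold change was 0.70 ± 0.25 (SE; limma adjusted p = 0.327), and on this scale differences of genes with low FPKM are understated. Without Pdgfra-cre library 23 it was 0.47 (limma adjusted p = 0.601). The neutrophil gene S100a8 was also highest in library 23, at 94.7 FPKM, with 0 to 9.42 in the others. S100a8, like Rel, was higher in every Pdgfra-cre library than in any floxed one, and both fell from library 23 to 13 to 25. Among floxed libraries their order differed, with S100a8 at 1.10, 6.84 and 0 FPKM in libraries 8, 9 and 43. The S100a8 gap was narrow, from 6.84 FPKM in floxed library 9 to 6.895 in Pdgfra-cre library 25, where Rel was at 2.88 and 4.15. The part of S100a8-expressing cells in the Rel difference was not tested. The part of other leukocytes was not tested either. Ptprc was highest in library 23, at 1.04 FPKM, and all its values were low in these cells sorted against CD45. In Pdgfra-cre libraries 13 and 25 it was at 0.0635 and 0 FPKM, beside 0.170 to 0.498 in the floxed libraries. Listed myeloid genes, named after their values were seen, went both ways there. S100a9 was at 5.56 and 2.19 FPKM, beside 0 to 1.11 in floxed libraries, and Cd14 at 7.37 and 7.05, beside 1.30 to 5.19. Cx3cr1 was lower, at 0.237 and 0.398 FPKM, beside 0.533 to 0.885 in floxed libraries. Csf3r was lower too, at 0 and 0.0298 FPKM, beside 0.062 to 0.0958, with all of these values close to 0. The 11 listed neutrophil markers summed to 20.2 and 16.1 FPKM in those 2 libraries, beside 2.19 to 16.7 in the floxed ones.

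Nfkb1, whose precursor is processed to the usual DNA-binding partner of RELA (chromosome 3, 135584655 to 135691547, minus strand), had overlapping groups. Its FPKM was 9.15, 7.88 and 9.10 in floxed libraries 8, 9 and 43 and 11.7, 10.02 and 7.63 in Pdgfra-cre libraries 13, 23 and 25. The lowest and the highest value of the series were both in the Pdgfra-cre group. The log2 fold change was 0.13 ± 0.20 (SE; limma adjusted p = 0.869), with a 95% interval from -0.31 to 0.58.

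The non-canonical subunits were split. Nfkb2 (chromosome 19, 46304320 to 46312385, plus strand), the precursor gene of this arm, was at 13.8, 21.4 and 14.6 FPKM in floxed libraries 8, 9 and 43 and at 23.5, 27.7 and 18.8 in Pdgfra-cre libraries 13, 23 and 25. Floxed library 9 reached into the Pdgfra-cre range, so the groups overlapped. The means were 16.6 ± 4.19 and 23.3 ± 4.49 FPKM (SD, n = 3 each), with a log2 fold change of 0.48 ± 0.21 (SE; limma adjusted p = 0.441). Of the 4584 exon bases annotated for Nfkb2, 830 are shared with genes on the opposite strand, among them Psd, and these libraries do not keep the strand. Relb, the partner of processed Nfkb2 (chromosome 7, 19606217 to 19629438, minus strand), had 24.5, 28.8 and 15.7 FPKM in floxed libraries 8, 9 and 43 and 23.2, 26.3 and 22.6 in the Pdgfra-cre libraries 13, 23 and 25. Both its highest and its lowest value were floxed, and the log2 fold change was 0.10 ± 0.21 (SE; limma adjusted p = 0.910). Without floxed library 43 it was -0.14.

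The proportions of the canonical and non-canonical arms overlapped between the genotypes. Rela made up 46.8% to 57.2% of the summed FPKM of the 5 subunits over the 6 libraries, with 52.3% ± 5.19 in floxed and 50.4% ± 2.81 in Pdgfra-cre (SD, n = 3 each). Nfkb2 and Relb together made up 36.7% ± 6.69 and 37.5% ± 1.54. The FPKM ratio of Nfkb2 to Nfkb1 was 1.51, 2.71 and 1.60 in floxed libraries 8, 9 and 43 and 2.02, 2.77 and 2.46 in Pdgfra-cre libraries 13, 23 and 25. The ratio of Relb to Rela was 0.436, 0.537 and 0.277 in the floxed and 0.369, 0.399 and 0.371 in the Pdgfra-cre libraries, in the same order. Both ratios overlapped between groups, and the spread was wider among floxed than among Pdgfra-cre libraries. The share of Rel was 2.51% to 3.18% in floxed and 3.64% to 5.64% in Pdgfra-cre libraries, without overlap. Each arm therefore held 1 subunit with a log2 fold change near 0.5 or above (Rel and Nfkb2), and the difference between the arms was not tested.

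Among the inhibitors, Nfkbia, which encodes the classical IkB alpha that is degraded on stimulation and then resynthesized (chromosome 12, 55489410 to 55492647, minus strand), dominated in every library. It stood at 979.9, 881 and 767 FPKM in floxed libraries 8, 9 and 43 and at 977, 1205 and 855 in Pdgfra-cre libraries 13, 23 and 25. Floxed library 43 was lowest and Pdgfra-cre library 23 highest, and the other 4 libraries were interleaved. The log2 fold change was 0.20 ± 0.15 (SE; limma adjusted p = 0.703). Nfkbia was 73.3% to 75.5% of the summed FPKM of the 5 inhibitors in every library. Its ratio to Rela was 15.8 ± 2.02 in floxed and 16.0 ± 2.14 in Pdgfra-cre libraries (SD, n = 3 each), a difference far inside the spread.

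The other cytoplasmic IkB genes were much scarcer. Nfkbib, for IkB beta (chromosome 7, 28758251 to 28767512, minus strand), had 33.5, 37.8 and 23.8 FPKM in floxed libraries 8, 9 and 43 and 36.3, 44.8 and 29.98 in Pdgfra-cre libraries 13, 23 and 25. The groups overlapped (log2 fold change 0.22 ± 0.20, SE; limma adjusted p = 0.768). Of its 2169 exon bases, 356 are shared with Ccer2 and Sirt2 on the opposite strand. Nfkbie, for IkB epsilon (chromosome 17, 45555703 to 45563169, plus strand), had 6.72, 9.53 and 5.20 FPKM in the floxed and 4.196, 9.97 and 9.62 in the Pdgfra-cre libraries. Its highest value was 2.38 times its lowest, the widest span of the 5 inhibitors, and the lowest was in Pdgfra-cre library 13, where Nfkb1 and Rel were above every floxed library. Its log2 fold change was 0.09 ± 0.32 (SE; limma adjusted p = 0.953), with a 95% interval from -0.64 to 0.81.

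Nfkbiz encodes the nuclear protein IkB zeta, which works with NF-kB at secondary response genes (chromosome 16, 55811375 to 55838899, minus strand), and it was second only to Nfkbia among the members. It was at 198.4, 189 and 159 FPKM in floxed libraries 8, 9 and 43 and at 214, 275 and 184 in Pdgfra-cre libraries 13, 23 and 25. Pdgfra-cre libraries 13 and 23 lay above all floxed libraries, and library 25 lay between floxed libraries 43 and 9. The log2 fold change was 0.29 ± 0.16 (SE; limma adjusted p = 0.572), the largest of the 5 inhibitors. Tnfaip3 encodes a ubiquitin-editing enzyme that shuts off signaling upstream of the IkB kinases (chromosome 10, 19000910 to 19015657, minus strand). Its FPKM was 90.9, 84.9 and 61.1 in floxed libraries 8, 9 and 43 and 87.4, 97.9 and 69.6 in Pdgfra-cre libraries 13, 23 and 25. The groups overlapped almost entirely, with means of 78.9 ± 15.8 and 85.0 ± 14.3 FPKM (SD, n = 3 each) and a log2 fold change of 0.11 ± 0.18 (SE; limma adjusted p = 0.881).

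Pdgfra-cre library 23 held the highest value of 8 of the 10 members, all 5 inhibitors among them, and floxed library 43 the lowest of 5, among them 4 of the 5 inhibitors. Over all tested genes, library 23 held the highest value of 23.7% and floxed library 43 the lowest of 19.4%. The median difference of the 10 members from the floxed mean was 0.084 in floxed library 8, 0.092 in library 9 and -0.19 in library 43 on the log2 scale. In Pdgfra-cre libraries 13, 23 and 25 it was 0.19, 0.47 and 0.021. Library 25 thus lay within the floxed range, while the same median over all tested genes stayed between -0.0038 and 0.015 in all 6 libraries. In bulk RNA from sorted cells, a different mix of cells and a different RNA amount per cell cannot be told apart, and the part of the cell mix in the high values of library 23 was not tested.

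**Figure D3:**
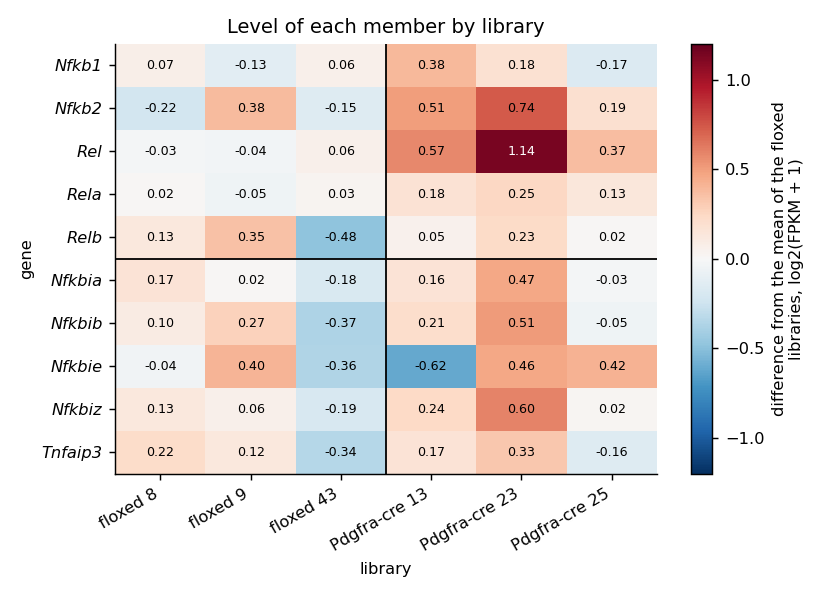
Difference of each member (rows) in each library (columns) from the mean of the 3 floxed libraries, on the log2(FPKM + 1) scale, with blue lower and red higher. Pdgfra-cre library 23 is positive in all 10 rows, floxed library 43 is negative in all 5 inhibitor rows, and Rel and Rela are the rows in which every Pdgfra-cre cell exceeds every floxed cell.

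Since several NF-kB genes are regulated by NF-kB, the promoters of the members were searched for the 10-base kB consensus, on both strands of the 250 bases before each RefSeq start (GRCm38.p6, the assembly of mm10). The RefSeq promoter table held 7 of the 10 members and did not list Nfkb1, Relb and Nfkbiz. Overlapping matches were counted as 1. A match was found for Nfkbia, Nfkbie, Rel, Nfkb2 and Tnfaip3, and none in the windows of Nfkbib and Rela. Of all 32851 promoter windows, 7.25% held a match, and of the 27025 genes 8.23% did in at least 1 window. Of the windows with 2 or more matches, which were 0.396% of all, 1 belonged to Nfkb2 and 1 to Tnfaip3. These matches are a description of letters and show neither binding nor its absence. Printed here, 5' to 3' on the gene's strand with matches in capitals, are the windows outside annotated exons of the most abundant member (Nfkbia, chr12:55492648-55492897, minus strand), of the member with the largest genotype difference (Rel, chr11:23770971-23771219, minus strand) and of the inhibitor with the widest span over libraries (Nfkbie, chr17:45555450-45555699, plus strand).
Nfkbia: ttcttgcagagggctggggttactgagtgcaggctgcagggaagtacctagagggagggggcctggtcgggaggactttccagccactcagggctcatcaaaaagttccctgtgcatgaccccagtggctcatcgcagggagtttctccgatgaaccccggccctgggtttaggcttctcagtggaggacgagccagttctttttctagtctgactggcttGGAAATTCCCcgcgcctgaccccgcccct
Rel: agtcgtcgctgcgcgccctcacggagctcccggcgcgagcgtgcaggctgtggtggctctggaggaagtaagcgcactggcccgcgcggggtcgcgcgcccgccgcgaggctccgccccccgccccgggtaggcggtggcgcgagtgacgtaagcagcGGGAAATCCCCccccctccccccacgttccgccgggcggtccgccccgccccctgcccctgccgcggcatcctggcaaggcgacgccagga
Nfkbie: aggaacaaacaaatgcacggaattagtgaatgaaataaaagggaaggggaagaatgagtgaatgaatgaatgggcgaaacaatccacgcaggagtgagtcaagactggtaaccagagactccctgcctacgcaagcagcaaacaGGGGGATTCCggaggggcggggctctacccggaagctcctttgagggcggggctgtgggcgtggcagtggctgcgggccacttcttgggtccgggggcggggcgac
The Nfkbia match lies 29 to 20 bases before the start and reads on the opposite strand. The Rel match begins 92 bases before the start and fits the consensus on both strands. The Nfkbie match lies 106 to 97 bases before the start. The genes printed were chosen for their level, genotype difference or span. Of the 7 members searched, 5 had a match, so these windows cannot show a relation of matches to level or span.

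Receptors and ligands upstream of NF-kB were next examined. Most feed the canonical arm, but the list also held ligands of the non-canonical arm (Lta, Ltb, Tnfsf14 and Tnfsf12). Of those ligands only Tnfsf12 was tested, and it lay above 0. In the whole list, 13 of 20 genes were tested, 0 were called and 8 lay above 0, and the median log2 fold change was 0.038. At an unadjusted limma p under 0.05, 0 were higher and 2 lower. For this list and those below, the shares over all tested genes were 5.47% higher, 5.49% lower and 50.3% above 0. Tnfrsf1a, the main receptor for tumor necrosis factor, was the most abundant, at 138 ± 16.3 FPKM in floxed and 130.7 ± 11.1 in Pdgfra-cre libraries (SD, n = 3 each). Il1rap, the shared accessory chain, was at 31.5, 23.2 and 21.0 FPKM in floxed libraries 8, 9 and 43 and at 14.2, 14.2 and 14.0 in Pdgfra-cre libraries 13, 23 and 25, without overlap (log2 fold change -0.77 ± 0.17, SE; limma adjusted p = 0.169). Il1rl1, the receptor for interleukin-33, was at 18.5 ± 4.61 FPKM in floxed and 6.22 ± 4.33 in Pdgfra-cre libraries, also without overlap (SD, n = 3 each; log2 fold change -1.59 ± 0.40, SE; limma adjusted p = 0.199). Neither passed over all genes. Il1r1, a receptor gene of the same family named after its values were seen, overlapped between groups, with a log2 fold change of -0.31. Il1r2, of that family and named likewise, was listed here among the neutrophil markers and not in this list. It overlapped too (log2 fold change 0.69), with its highest value, 10.1 FPKM, in Pdgfra-cre library 23. Il1b itself was at 0.652 to 1.22 FPKM in floxed libraries and at 3.00, 12.4 and 1.08 in Pdgfra-cre libraries 13, 23 and 25, a gene named after its values were seen.

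Of 20 canonical kinases and adaptors, all tested, 7 lay above 0 and 13 below, with a median of -0.066 and 0 called (limma, unadjusted p under 0.05: 1 higher, 2 lower). Myd88, the adaptor of Toll-like and interleukin-1 receptors, was the most abundant, at 94.7 ± 22.8 FPKM in floxed and 138.1 ± 34.1 in Pdgfra-cre libraries (SD, n = 3 each; limma adjusted p = 0.372). Irak2, a kinase of the same receptors, was at 5.46 ± 0.448 and 3.43 ± 0.390 FPKM without overlap (limma adjusted p = 0.344), and Tab1, which activates the kinase encoded by Map3k7, at 9.26 ± 2.48 and 5.56 ± 1.34 with overlap (limma adjusted p = 0.368). For the non-canonical kinase and adaptors, 9 of 10 were tested, 4 lay above 0 and 5 below, the median was -0.086 and 0 were called (limma, unadjusted p under 0.05: 1 higher, 0 lower). That median was 0.235 under a filter of 5 FPKM and 0.11 without Pdgfra-cre library 23. Tnfrsf12a, a receptor that engages this arm, had 117, 134 and 139 FPKM in floxed libraries 8, 9 and 43 and 196, 196 and 162 in Pdgfra-cre libraries 13, 23 and 25, without overlap (log2 fold change 0.50 ± 0.12, SE; limma adjusted p = 0.195). Traf3, the adaptor that holds the Map3k14 kinase down, was at 5.47 ± 1.19 and 3.74 ± 0.551 FPKM without overlap (limma adjusted p = 0.530). Birc3, a ubiquitin ligase that is also an NF-kB target, was at 55.2 ± 6.90 and 67.5 ± 9.70 FPKM (limma adjusted p = 0.552). Map3k14 itself was low in both groups, at 2.205 to 3.46 FPKM in floxed and 0.964 to 4.14 in Pdgfra-cre libraries, and it was named after its values were seen.

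The 15 other regulators of the pathway had 13 tested members, 6 above 0 and 7 below, with a median of -0.051 and 0 called, also 0 at an unadjusted limma p under 0.05. Tax1bp1, an adaptor of the Tnfaip3 product, was at 109.9 ± 11.01 FPKM in floxed and 103.6 ± 14.3 in Pdgfra-cre libraries (SD, n = 3 each). The RNase gene Zc3h12a (1.66 ± 0.580 and 2.97 ± 1.29 FPKM) and the deubiquitinase gene Otulin (17.1 ± 5.33 and 24.2 ± 7.00) overlapped between groups, with limma adjusted p values of 0.562 and 0.566. Bcl3, a nuclear IkB relative named after its values were seen, had 64.3, 66.9 and 46.0 FPKM in floxed libraries 8, 9 and 43 and 64.0, 90.3 and 64.0 in Pdgfra-cre libraries 13, 23 and 25. It showed the same low library 43 and high library 23 as the inhibitors.

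Genes that the canonical arm is known to induce had 25 of 30 members tested. Of these, 19 lay above 0 and 6 below, beside 50.3% of all tested genes above 0. Their median log2 fold change was 0.28 and 0 were called. The median was 0.16 without Pdgfra-cre library 23 and 0.54 without Pdgfra-cre library 25. At an unadjusted limma p under 0.05, 7 were higher and 1 lower, against 5.47% and 5.49% of all tested genes. The neutrophil chemokine gene Cxcl1 was the most abundant, at 2330, 2400 and 1593 FPKM in floxed libraries 8, 9 and 43 and at 3360, 4387 and 2503 in Pdgfra-cre libraries 13, 23 and 25, without overlap (log2 fold change 0.68 ± 0.22, SE; limma adjusted p = 0.287). The complement gene C3 was at 1460 ± 528 and 2944 ± 1256 FPKM (SD, n = 3 each; limma adjusted p = 0.277). Ptgs2, which makes prostaglandins, went the other way, at 169 ± 24.7 and 112.3 ± 24.3 FPKM without overlap (limma adjusted p = 0.243). Of these 25 genes, 15 had their highest value in Pdgfra-cre library 23 and 15 their lowest in floxed library 43. Over all tested genes the shares were 23.7% and 19.4%. The same libraries stood at the ends of the inhibitors.

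Of 8 targets of the non-canonical arm, 6 were tested, 2 lay above 0 and 4 below, with a median of -0.31 and 0 called (limma, unadjusted p under 0.05: 0 higher, 1 lower). The median was -0.19 with a pseudocount of 5, -0.20 without Pdgfra-cre library 13, -0.11 without Pdgfra-cre library 25 and -0.48 without Pdgfra-cre library 23. Cxcl13, the chemokine gene that draws B cells, was at 719.8, 906 and 454 FPKM in floxed libraries 8, 9 and 43 and at 426, 193 and 343 in Pdgfra-cre libraries 13, 23 and 25, without overlap (log2 fold change -1.13 ± 0.31, SE; limma adjusted p = 0.231). Cxcl12, a chemokine gene of stromal cells, was at 1282 ± 54.9 and 1047 ± 298 FPKM, and Tnfsf13b, which encodes a B cell survival factor, at 101.9 ± 11.8 and 82.8 ± 20.3 (SD, n = 3 each; limma adjusted p = 0.563 and 0.566). The 2 targets above 0, named after their values were seen, were Ccl19 and Tnfsf11. Ccl19 was at 37.5 ± 40.6 FPKM in floxed and 53.6 ± 12.9 in Pdgfra-cre libraries (log2 fold change 1.11 ± 0.68, SE, limma adjusted p = 0.614). The log2 fold change of Tnfsf11 was 0.025. Targets in both directions thus stand beside a higher mean of Nfkb2 and a nearly equal mean of Relb.

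**Figure D4:**
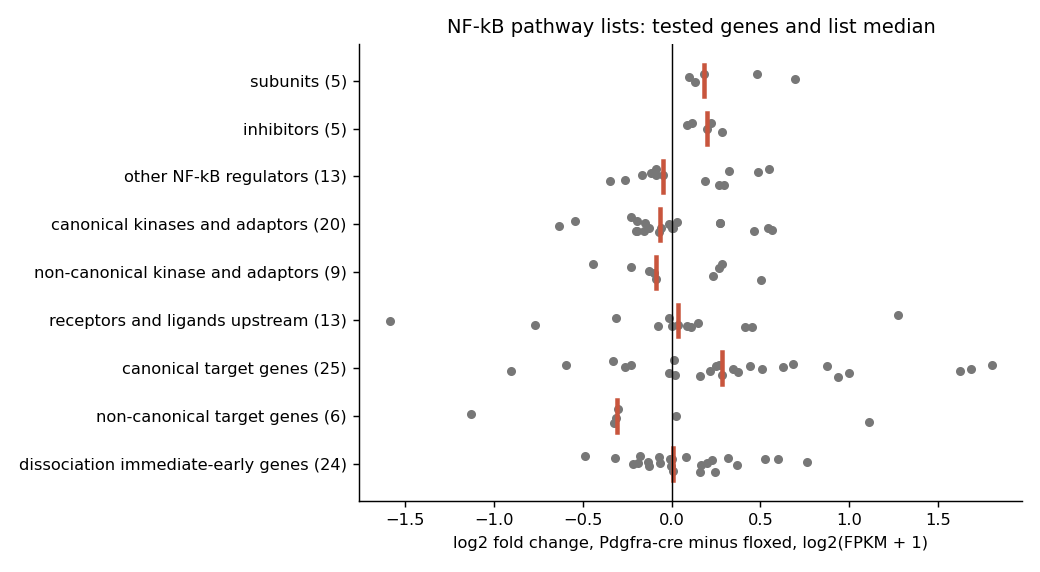
Log2 fold change (horizontal axis, Pdgfra-cre minus floxed, log2(FPKM + 1)) of the tested genes of each list, with their number in brackets, as grey points scattered vertically for legibility, and the list median as a red bar. The medians of subunits (0.18), inhibitors (0.20) and canonical target genes (0.28) lie right of 0, and that of non-canonical target genes (-0.31) left of it.

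Immediate-early genes, which tissue digestion and sorting can induce along with Nfkbia, Nfkbiz and Tnfaip3, were abundant in both groups, with Fos at 3286 ± 274 FPKM in floxed and 3136 ± 203 in Pdgfra-cre libraries (SD, n = 3 each). Of 24 tested, 13 lay above 0 and 11 below, with a median of 0.0055 and 0 called. At an unadjusted limma p under 0.05, 5 were higher and 1 lower, against 5.47% and 5.49% of all tested genes. Atf3, a stress-induced factor, was at 683 ± 28.7 and 984.7 ± 54.5 FPKM without overlap (limma adjusted p = 0.156), and Egr2 at 89.2 ± 5.33 and 63.9 ± 10.97 FPKM, also without overlap (limma adjusted p = 0.244). The median difference of this list from the floxed mean was 0.042 in floxed library 43 and 0.12 in Pdgfra-cre library 23, beside -0.34 and 0.47 for the inhibitors. Of the 24, 8 had their highest value in library 23 and 3 their lowest in floxed library 43, against 23.7% and 19.4% of all tested genes. The part of digestion and sorting in the inhibitor values was not tested.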

How the data were processed

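Per the labels, total RNA was amplified as full-length cDNA and made into libraries by tagmentation, which does not keep the strand. The authors deposited 1 table of gene-level FPKM per library, per the file headers. Per the submitters' processing notes, the tools were TopHat2 2.1.1, Bowtie2 2.2.8, SAMtools 0.1.18 and Cuffdiff 2.2.1, with mm10, while annotation and options are not given in the sources used here. Members and gene lists were chosen with earlier results of these data known. R 4.3.3 and limma 3.58.1 were run on log2(FPKM + 1) for genes that reached 1 FPKM in 3 or more libraries, with a variance trend and Benjamini-Hochberg adjustment, and tested on simulated data. Each library came from a different mouse. Genes named from other lists were the most abundant tested member and the 2 others with the lowest p; for cell types, the member with the highest FPKM. Positions and exon overlaps came from GENCODE M21 and promoters from RefSeq. Relative depth was read from the most frequent ratio of values under 0.5 FPKM. The alternatives were other pseudocounts, filters, scalings and limma settings, and leaving out each library.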

Additional observations from a re-analysis of the deposited data

How the results depend on the processing

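No member passed an adjusted p of 0.05 in limma under any of the 10 alternatives that kept all libraries or the 6 that left out 1, and the lowest adjusted p of any member was 0.230, for Rel without Pdgfra-cre library 25. The number of genes called over the whole table was 0 with all libraries and ran from 0 to 31 with 1 left out: 2 without floxed library 43, 3 without Pdgfra-cre library 13 and 31 without Pdgfra-cre library 25. The median over the members ran from 0.097 (rescaled to TPM) to 0.19 with all libraries, and from 0.094 to 0.30 with 1 left out. Signs changed for members near 0. Nfkbie was -0.0012 after rescaling and -0.0057 with array weights, and ran from -0.10 to 0.44 with 1 library left out. Tnfaip3 was -0.0027 with array weights and ran from -0.061 to 0.25, and Relb from -0.14 to 0.28. Rel ran from 0.47 to 0.86, but was not tested under the filter of 5 FPKM. Of other named genes, Dcn was -0.052 under quantile normalization and the macrophage gene Lyz2 -0.14 with array weights; with 1 library left out Lyz2 ran from -0.23 to 0.54 and Tax1bp1 from -0.18 to 0.015. The ratio of Nfkb2 to Nfkb1 (Pdgfra-cre minus floxed) ran from 0.26 to 0.86, that of Relb to Rela from -0.107 to 0.0233 and that of Nfkbia to Rela from -1.001 to 1.11. List medians near 0 also changed sign: with 1 library left out they ran from -0.12 to 0.11 for the non-canonical kinase and adaptors, -0.14 to 0.11 for other regulators, -0.14 to 0.15 for receptors and ligands, and -0.042 to 0.106 for immediate-early genes; after rescaling to TPM the last 2 were -0.052 and -0.084. The cause of these changes was not tested. No paired analysis was possible because the mouse numbers are not shared between genotypes. Fragment totals were not given, so counting error could not be put on low values such as those of Rel.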
